A study of Mus musculus with 2 samples.

Results

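ATP-dependent chromatin remodellers and the histone chaperones that work beside them were examined at the RNA level in mouse embryonic stem (ES) cells, as 55 genes listed by symbol. All 55 were found once each among the 28592 genes of the table. The cells were E14TG2a (written E14TG2 in the sample records), an ES line lacking functional Hprt, held in the ground state in 2i/LIF medium, in which inhibitors of MEK and GSK3 are combined with leukaemia inhibitory factor. There was 1 group of 2 replicates with no other genotype, treatment or time point, so genes were compared with each other inside the same libraries. Levels are FPKM, fragments normalised to transcript length and to the mapped fragments of the library, which allows genes of different length to be set side by side. Values are given for replicates 1 and 2 or as the mean ± SD (n = 2), and the limit for calling a gene detected was an FPKM of 1, reached in both replicates.

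Remodellers use ATP to slide, evict or exchange nucleosomes, and fall into the SWI/SNF (BAF), ISWI, CHD and INO80 families according to their ATPase. Several BAF subunits are encoded by small families of paralogs, and complexes of different cell types differ in which of them they hold. The form described in ES cells, esBAF, is known for Smarca4, Smarcc1, Smarcd1, Arid1a, Actl6a, Dpf2 and Ss18, while Smarca2, Smarcc2, Smarcd3, Actl6b, Dpf1, Dpf3 and Ss18l1 are known from neurons, muscle or other somatic cells. Smarcd2 and Arid1b, further paralogs that are not tied to such cells here, were set beside Smarcd1 and Arid1a as well. Histone chaperones carry histones to and from DNA, some during replication and others at transcribed or heterochromatic sites.

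Nearly all of the genes were transcribed, over a range from listed at 0 to above 180. In all, 52 of 55 (94.5%) were detected, beside 39.4% of all genes in the table and 50.6% of those typed as protein-coding by RefSeq. Levels of 10 or more in each replicate were reached by 37 of them (67.3%, beside 21.8% of all genes), and levels of 100 or more by 5 (9.09%, beside 3.61%). Those 5 were Hells, Ssrp1, Actl6a, Supt16 and Smarca5. The genes that were not detected were Smarca2, Dpf3 and Actl6b, each of them a BAF paralog of the neuronal or somatic kind. The median over all 55 was 19.5 (20.4 and 19.3 in replicates 1 and 2), beside 0.233 over all genes and 12.7 over detected genes. Among the 52 detected, 15 stood in the highest 25% of all detected genes and 10 in the lowest 25%. These shares describe a list of widely used nuclear proteins, and no other cell type was measured.

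**Figure D1:**
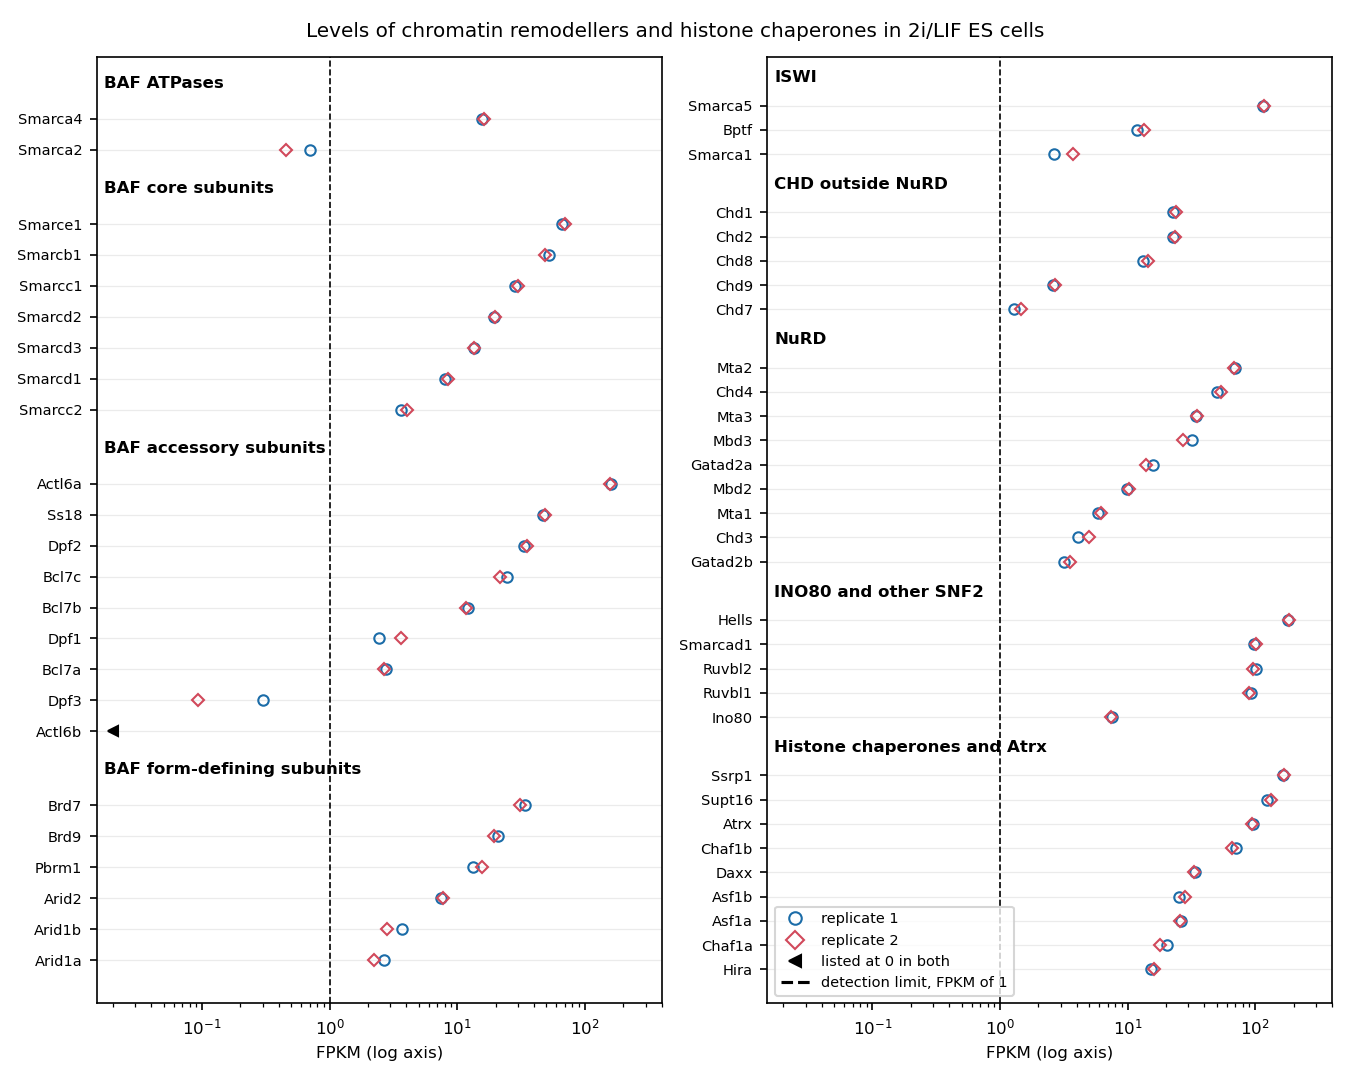
FPKM of each of the 55 genes (log axis) in replicate 1 (circles) and replicate 2 (diamonds), grouped by complex and ordered by mean level. Smarca2 and Dpf3 lie left of the dashed detection limit of 1, Actl6b is marked at the left edge as listed at 0, and Hells, at 183, is the highest.

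The libraries carried the markers of the labelled cell type. All 5 pluripotency markers were detected, from Esrrb at 94.6 ± 5.39 to Pou5f1 at 976 ± 40.8. Of 10 neuronal markers 3 were detected (Stmn2 at 131, Tubb3 at 31.2 and Ncam1 at 5.09), their sum was 169 and 168 in replicates 1 and 2, and Dcx was listed at 0 in both. Of 8 heart and skeletal muscle markers only Ttn was detected, at 1.24 ± 0.0811, the sum was 2.62 and 2.30, and Actc1, Nkx2-5 and Myod1 were listed at 0. None of 8 fibroblast markers was detected, and their sum was 0.439 in replicate 1 and 2.95 in replicate 2. In bulk RNA, a low level of a gene in every cell and a higher level in a few cells cannot be told apart.

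The esBAF-type BAF gene was higher in 6 of the 9 comparisons, which were planned together. Split by kind of paralog, outside that plan and with earlier results known, it was higher in 6 of 7 against neuronal, muscle or other somatic paralogs. The split sets aside 2 of the 3 comparisons that went the other way, so 6 of 7 adds no support to 6 of 9. Where a fold could be given, the 6 with the esBAF-type gene higher differed by between 7.65-fold and 205-fold. The exception among the 7 was Smarcd1, which was 1.65-fold lower than Smarcd3. In the 2 comparisons with the remaining paralogs the esBAF-type gene was also lower, Arid1a by 1.32-fold against Arid1b and Smarcd1 by 2.37-fold against Smarcd2. In all 9 the ranges over the replicates were apart. That holds for 96.4% of all pairs of detected genes, so the gap itself says little. A difference of at least 2-fold, in either direction, was found in 6 of the 9, beside 73.7% of all pairs of detected genes. Actl6a/Actl6b, which has no fold, is not in that count, and Smarcd1/Smarcd2 is. An exact sign-flip permutation test over 2 replicates cannot give p below 0.5, so no p-value is given for any ratio. Differences in level between genes also carry the effective transcript lengths used in the quantification, which were not given.

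The ATPase genes showed a wide gap. Smarca4, the ATPase of esBAF also called Brg1, stood at 15.6 and 16.2. Smarca2, its paralog Brm, stood at 0.698 and 0.458. Smarca4 thus supplied 96.5% ± 1.09 of the RNA of the pair, and the mean log2 ratio was 4.81 ± 0.47 (28.1-fold). Although it leads its pair, Smarca4 was of moderate level, with 56.0% of detected genes below it, and the ATPase genes Smarca5 and Chd4 of other remodeller families were higher.

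The scaffold subunits Smarcc1 and Smarcc2, which hold the complex together, had the same order. Smarcc1 was at 28.5 and 30.2, and Smarcc2 at 3.62 and 4.06. Smarcc2 was detected but made up only 11.6% ± 0.401 of the pair, with a mean log2 ratio of 2.94 ± 0.06 for Smarcc1 over Smarcc2. The invariant core subunits, which have no paralog in the list, were higher than either: Smarcb1 at 50.9 ± 2.80 and Smarce1, a DNA-binding HMG-box subunit, at 68.4 ± 2.60.

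The actin-related subunit genes were at opposite ends of the list. Actl6a, shared by dividing cells and also part of INO80-type complexes, was at 161 and 159 and was the highest BAF gene, above 94.0% of detected genes. Actl6b, the form that replaces it in neurons, was listed at 0 in both replicates, so no fold is given, and an exact 0 in such estimates may be a failed estimate. The start regions of this pair are shown because one gene was among the highest members and the other was the only one at 0. Each is the 300-base RefSeq window of GRCm38.p6 from 250 bases before to 50 after the start, on the plus strand, with CpG dinucleotides in capitals. Actl6a lies at chr3:32708296-32708595 and Actl6b at chr5:137553296-137553595.
Actl6a: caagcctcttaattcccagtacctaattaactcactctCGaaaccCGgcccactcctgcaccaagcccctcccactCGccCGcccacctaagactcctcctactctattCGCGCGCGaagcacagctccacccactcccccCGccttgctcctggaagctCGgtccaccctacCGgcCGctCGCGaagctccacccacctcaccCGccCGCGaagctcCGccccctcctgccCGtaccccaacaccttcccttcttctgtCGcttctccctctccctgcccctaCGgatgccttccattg
Actl6b: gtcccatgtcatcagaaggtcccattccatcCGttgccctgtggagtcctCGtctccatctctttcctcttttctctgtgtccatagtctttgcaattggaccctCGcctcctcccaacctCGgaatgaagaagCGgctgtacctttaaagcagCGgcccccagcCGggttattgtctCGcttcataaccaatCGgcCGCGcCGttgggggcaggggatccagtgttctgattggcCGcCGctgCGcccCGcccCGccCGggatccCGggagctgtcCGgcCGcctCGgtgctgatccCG
The windows held nearly the same number of CpG dinucleotides, 21 for Actl6a and 23 for Actl6b, and had 63.7% and 61.7% G or C. They differed in the box CCAAT, the core of NF-Y motifs, which was matched 3 times on either strand for Actl6b and not for Actl6a. CCAAT was in 37.4% of all 32851 windows. The letters TTCAGCACC, one side of the RE1 element bound by the neuronal repressor REST, were in neither window, and GGACAGC, the other side, had 1 match in Actl6b. On either strand, TTCAGCACC was in none of the 55 windows found for members and in 0.371% of all windows. GGACAGC was in 8 member windows (14.5%), beside 7.45% of those of detected genes and 6.56% of all. The 8 windows belonged to Actl6b and to the detected genes Arid1a, Arid1b, Chd4, Chd8, Mbd3, Smarca5 and Smarcc2.

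Among the double-PHD-finger subunits Dpf1, Dpf2 and Dpf3, which read histone modifications, Dpf2 held 91.4% ± 1.35 of the RNA. Dpf2 was at 33.1 and 35.2. Dpf1, known from neurons, was detected at 2.45 and 3.62, and Dpf3, known from heart, muscle and neurons, was at 0.299 and 0.0927. The log2 ratio of Dpf2 to Dpf1 was 3.52 ± 0.34. That of Dpf2 to Dpf3 was 7.68 ± 1.3, an imprecise value because Dpf3 differed 3.22-fold between the replicates. Dpf1 was thus a neuronal paralog present at a low level in both libraries, beside 3 of 10 neuronal markers detected, and the part of neuronal cells in its level was not tested.

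Ss18, a subunit that anchors accessory proteins, was at 47.2 and 49.0. Its paralog Ss18l1, known as Crest in neurons and not among the 55 genes, was at 1.41 and 1.26. Ss18 was higher by 5.17 ± 0.15 on the log2 scale. Of the Bcl7 accessory subunits, Bcl7c was highest at 24.7 and 21.8, Bcl7b followed at 12.1 and 11.7, and Bcl7a was lowest at 2.77 and 2.68, with no overlap between them.

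The Smarcd and Arid1 families had the opposite order. Smarcd1, the esBAF-type member, was the lowest of its family at 7.98 and 8.50. Smarcd2 was at 19.3 and 19.7, and Smarcd3, known from heart and muscle development, at 13.5 and 13.6. Smarcd1 made up 19.9% ± 0.564 of the family, Smarcd2 47.2% ± 0.228 and Smarcd3 32.8% ± 0.336. The ratio of Smarcd1 to Smarcd2 was -1.24 ± 0.05 on the log2 scale and that of Smarcd1 to Smarcd3 was -0.72 ± 0.06, with the same sign in both replicates. The RefSeq span of Smarcd3 overlaps the coding gene Chpf2 over 1777 bases. Chpf2 was at 7.79 and 9.08, and whether strand was used in the quantification was not given, so the Smarcd3 level is uncertain. The heart and skeletal muscle markers summed to 2.62 and 2.30, and their part in the Smarcd3 level was not tested.

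Arid1a and Arid1b encode the large DNA-binding subunits that define canonical BAF. Arid1a was at 2.68 and 2.25, and Arid1b at 3.69 and 2.84. Arid1b was higher in each replicate, with a log2 ratio of Arid1a to Arid1b of -0.40 ± 0.08, the smallest of the BAF differences. Both stood in the lowest 25% of detected genes, and both were lower in replicate 2.

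**Figure D2:**
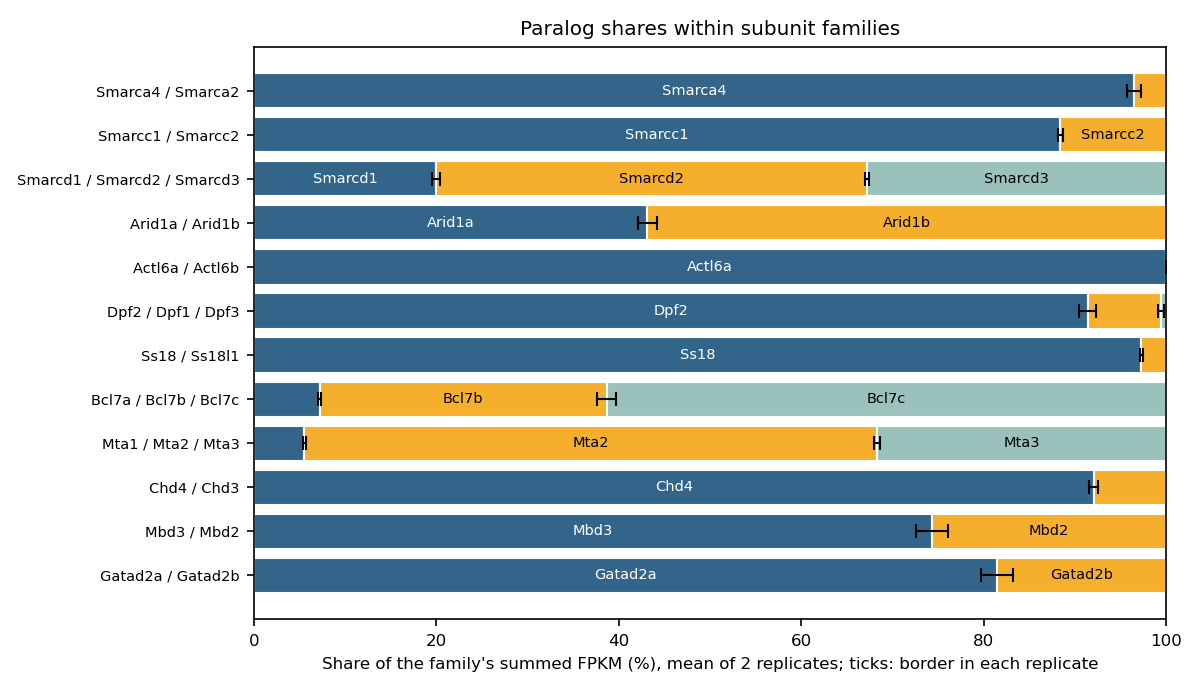
Share of each paralog in the summed FPKM of its family (%), as the mean of 2 replicates, with black ticks at the border in each replicate. Smarca4, Smarcc1, Actl6a, Dpf2 and Ss18 fill most of their bars, while Smarcd1 takes 19.9% and Arid1a 43.1%.

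Subunits that mark the other BAF forms were higher than the Arid1 genes. Arid2, the DNA-binding subunit of the polybromo form (PBAF), was at 7.46 and 7.69, Pbrm1, its bromodomain subunit, at 13.2 and 15.7, and Brd7, also of PBAF, at 34.1 and 30.9. Brd9, the bromodomain subunit of the non-canonical form, was at 20.9 and 19.3. In the sum of Arid1a, Arid1b, Arid2 and Brd9, Brd9 made up 60.2% ± 0.0396, Arid2 22.7% ± 1.78, and the Arid1 genes 9.74% ± 1.23 (Arid1b) and 7.36% ± 0.505 (Arid1a). These are RNA shares, and amounts of protein or of assembled complex were not measured. The span of Pbrm1 overlaps Smim4 over 33466 bases, and Smim4 was at 57.8 and 45.8, so the Pbrm1 level is uncertain.

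In the ISWI family, whose ATPases space nucleosomes evenly, Smarca5 was at 115 and 118 and Smarca1 at 2.65 and 3.71. Smarca5 (Snf2h), known from proliferating cells, made up 97.3% ± 0.564 of the pair, with a log2 ratio of 5.22 ± 0.32 over Smarca1 (Snf2l), known from differentiated neurons. Bptf, the large histone-reading subunit of the NURF complex, was at 11.9 and 13.5. Smarca5 therefore stood above Bptf and Smarca1 in both libraries.

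NuRD joins a CHD ATPase to histone deacetylases and to proteins that bind methylated or unmethylated DNA. Its ATPase Chd4 (Mi-2 beta) was at 50.4 and 53.9 and its paralog Chd3 at 4.06 and 4.95, a log2 ratio of 3.54 ± 0.13. Mbd3, the subunit required for ES cells to leave self-renewal, was at 31.7 and 27.3. Mbd2, which binds methylated DNA and replaces Mbd3 in a separate NuRD form, was at 9.95 and 10.3, so Mbd3 made up 74.4% ± 2.45 of that pair. The Mta scaffold genes were ordered Mta2 (68.9 and 68.0), Mta3 (34.1 and 34.9) and Mta1 (5.82 and 6.17). The linker gene Gatad2a was at 15.7 and 13.98, above Gatad2b at 3.17 and 3.55. Each NuRD family thus had 1 leading gene, but the leads were smaller than that of Smarca5, from 1.98-fold (Mta2 over Mta3) to 11.6-fold (Chd4 over Chd3).

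Other CHD genes fell into a higher and a lower set. Chd1, which binds the H3K4 methylation of active promoters and is known for keeping ES cell chromatin open, was at 22.7 and 24.0. Chd2, its close paralog, was at 22.5 and 23.3, and their ranges overlapped (log2 ratio 0.03 ± 0.02). Chd8, a remodeller known from autism genetics, was at 13.1 and 14.5. Chd7, mutated in CHARGE syndrome, was at 1.28 and 1.47, and Chd9 at 2.58 and 2.71. Chd7 had the lowest level of all detected members, and Chd8 exceeded it 10.1-fold.

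Remodellers of the INO80 class and their relatives included the highest gene of the set. Hells (Lsh), a SNF2 protein needed for DNA methylation of repeats, was at 180 and 185, above 94.8% of detected genes. Smarcad1, which restores silent chromatin after replication, was at 97.0 and 102. The paired AAA+ ATPases Ruvbl1 and Ruvbl2, which form a mixed ring in INO80 and other complexes, were at 93.3 and 89.0 and at 102 and 96.3. They differed by only 1.09-fold, with Ruvbl2 higher in each replicate. The catalytic gene Ino80 itself was much lower, at 7.55 and 7.43.

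Histone chaperones were all detected, with a median of 33.5 ± 0.326 over the 9 genes of this group, which includes the remodeller Atrx. The FACT subunits Ssrp1 (166 and 168) and Supt16 (124 and 133), which move H2A-H2B dimers ahead of polymerases, were the highest and stood 1.30-fold apart. Chaf1b (70.6 and 66.1) and Chaf1a (20.4 and 18.1) encode CAF-1 subunits, which deposit new H3.1-H4 at replication forks. Unlike the FACT pair, these partners differed 3.56-fold. Asf1a (26.4 and 25.6) and Asf1b (25.3 and 28.2), the chaperones that hand H3-H4 to CAF-1 and HIRA, overlapped in range.

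For the histone variant H3.3, Atrx and Daxx deposit it at telomeres and repeats, and Hira at active genes. Atrx was at 96.9 and 94.8, Daxx at 33.7 and 33.3, and Hira at 15.2 and 16.2. The log2 ratio of Atrx to Daxx was 1.52 ± 0.01. These 3 genes kept one order in both libraries, Atrx above Daxx above Hira.

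**Figure D3:**
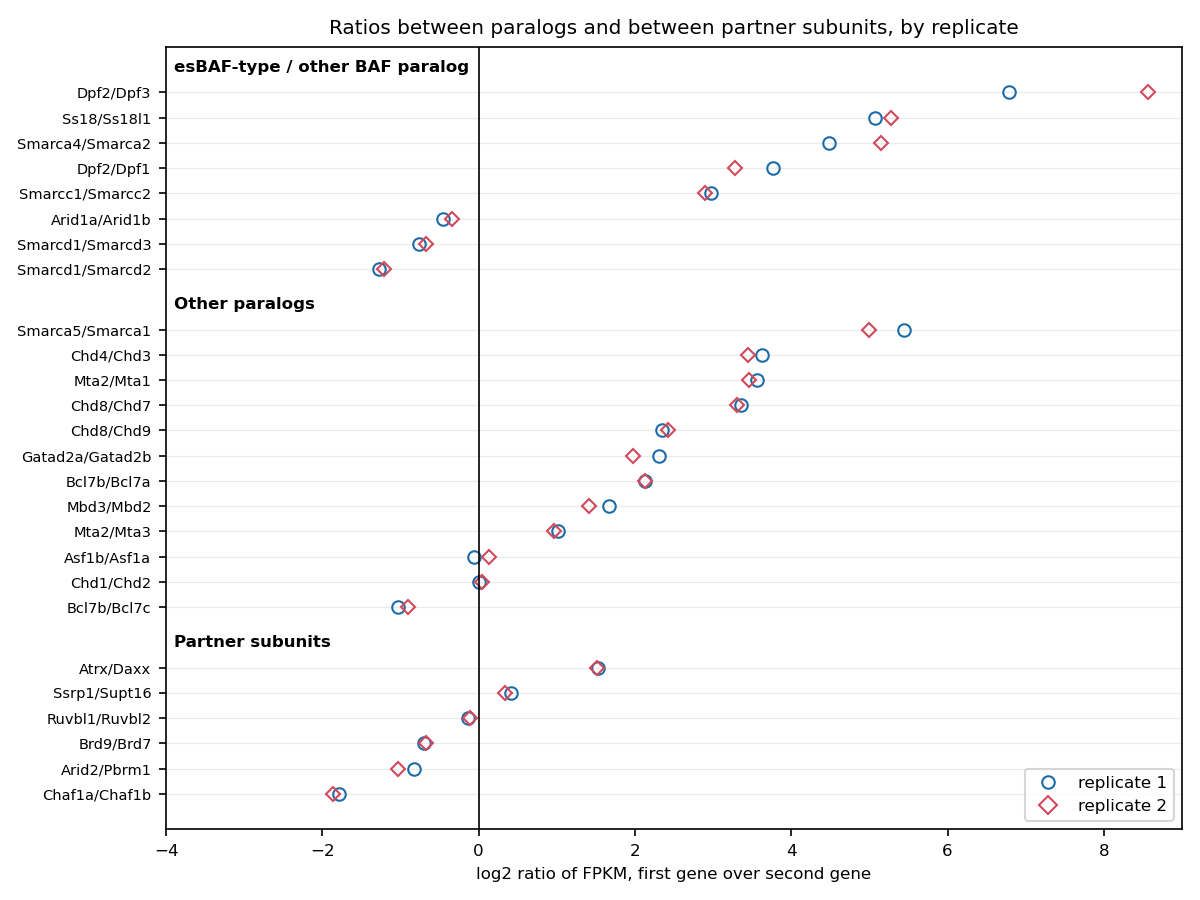
Log2 ratio of FPKM for each pair of paralogs or partner subunits in replicate 1 (circles) and replicate 2 (diamonds), without pseudocount; Actl6a/Actl6b is left out because Actl6b was listed at 0. Dpf2/Dpf3 lies furthest right and the least precise, 8 pairs lie left of 0, namely Arid1a/Arid1b, Smarcd1/Smarcd3, Smarcd1/Smarcd2, Bcl7b/Bcl7c, Ruvbl1/Ruvbl2, Brd9/Brd7, Arid2/Pbrm1 and Chaf1a/Chaf1b. Chd1/Chd2 and Asf1b/Asf1a lie near 0. Brd9/Brd7, drawn among the partner subunits, joins genes of different BAF forms.

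Outside the esBAF comparisons, 18 further pairs were set side by side, 12 of paralogs and 6 planned as partner subunits. Of these 6, Brd9/Brd7 joins subunits of different BAF forms and is not a partner pair. Ranges were apart in 10 of the 12 and in all 6, beside the 96.4% of all pairs of detected genes. The exceptions were Asf1b/Asf1a and Chd1/Chd2. At least 2-fold differences were found in 8 paralog pairs and in 2 partner pairs (Chaf1a/Chaf1b and Atrx/Daxx), beside 73.7% of all pairs of detected genes.

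Other genes of the same complexes, 54 in lists drawn up beside the members, were detected in 50 cases. Of all genes 39.4% were detected, and of RefSeq protein-coding genes 50.6%, which is the background for each list below. Of 6 further BAF genes 3 were detected: Phf10 (33.6 ± 1.02), a PBAF subunit, led them, with Bicral at 5.43 ± 0.341 and Ss18l1. Bcl11b, known from T cells and neurons, was lowest at 0.0112, and Bicra and Bcl11a, named after their values were seen, were also under 0.1. All 5 NuRD partners were detected, led by Rbbp7 (202 ± 3.62) and the deacetylase Hdac2 (160 ± 0.107), with Cdk2ap1 lowest at 35.9 ± 1.29. Of 8 further CHD and SNF2 genes 7 were detected, led by Hltf (23.0 ± 1.63) and Chd1l (18.8 ± 0.605). The exception was Chd5, a NuRD ATPase known from neurons and testis, at 0.277 ± 0.0426. Thus the 4 genes that were not detected were in the BAF and CHD lists.

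All 8 ISWI partners were detected, from Baz1a at 2.22 ± 0.110 up to Pole3 (28.5 ± 1.70) and Baz1b (38.1 ± 0.701). All 15 INO80 and SRCAP subunits were detected too, from Ino80d at 2.87 ± 0.120 to Ino80e (36.1 ± 0.790) and Mcrs1 (69.5 ± 4.80). Among 12 further chaperone genes, all detected, the nucleolar chaperone Npm1 (3502 ± 83.7) and Set (1613 ± 62.5) far exceeded every one of the 55 genes, and Cabin1, a HIRA partner, was lowest at 3.42 ± 0.140. Medians were 93.3 for NuRD partners, 77.7 for chaperones, 21.2 for INO80 and SRCAP, 14.6 for ISWI partners, 6.63 for CHD and SNF2 and 0.704 for BAF, beside 12.7 over all detected genes.

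The replicates differed little in these genes. Over the 52 detected members the median difference was 1.06-fold, the same as over all detected genes. Of these members 32 were higher in replicate 2, beside 5486 of all 11253 detected genes. Of 54 members above 0 in both, 2 (3.70%) were more than 1.5 times apart, beside 18.6% of all genes above 0 and 1.8% of detected genes. They were Dpf3 and Smarca2, both under the detection limit, where ratios spread widely in all genes. Next came Dpf1 (1.48-fold) and Smarca1 (1.40-fold), higher in replicate 2, and Arid1b (1.30-fold), lower in it. The fibroblast marker sum was also higher in replicate 2, and its part in the Dpf1 and Smarca1 differences was not tested.

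**Figure D4:**
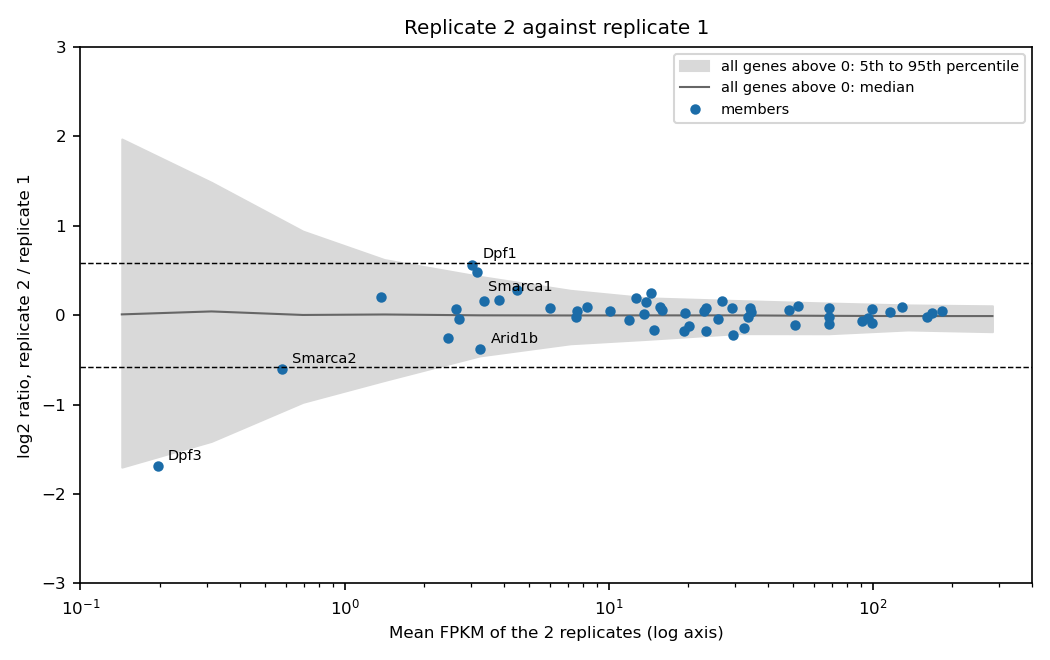
Log2 ratio of replicate 2 to replicate 1 against mean FPKM (log axis) for the 54 members above 0 in both (points), over the 5th to 95th percentile band and median of all genes above 0 by level; dashed lines mark a 1.5-fold difference. Only Smarca2 and Dpf3 pass a dashed line, at mean levels of 0.578 and 0.196, and Dpf1 and Smarca1 come close to the upper line.

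Members with low RNA tended to lie in long genes. The median RefSeq span was 77.8 kb for the 13 members with a mean FPKM under 5, 53.1 kb for the 28 from 5 to 50, and 28.5 kb for the 14 at 50 or more. The longest was Arid1b (chromosome 17, 4994297 to 5347656), at 353 kb, and the exception among the high genes was Atrx (chromosome X, 105797615 to 105929372), at 132 kb. Across the 54 members above 0, Spearman's rho between span and level was -0.39 and Pearson's r of the log2 values was -0.47. Over 10281 detected coding genes these were -0.18 and -0.22. The points share the same libraries and genes are not independent, so these values are descriptions.

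On the map, Supt16 and Chd8 were neighbours on chromosome 14, with the span of Supt16 (52160419 to 52197239) ending 912 bases before that of Chd8 (52198151 to 52258042) begins. The start windows of both were on the minus strand, so Chd8 lies upstream of Supt16. Their levels were unlike, at 129 ± 6.10 for Supt16 and 13.8 ± 1.03 for Chd8. No other members lay within 100 kb of each other. The spans of 29 members overlapped another RefSeq gene, and those of 8 overlapped a coding gene (Smarcd3, Pbrm1, Brd7, Ruvbl1, Ruvbl2, Chaf1a, Asf1a and Supt16). Levels of overlapping genes are uncertain where strand was not used.

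RefSeq start windows were matched by symbol for 45 of the 55 genes, 55 windows in all. The genes without one were Smarce1, Ss18, Bcl7a, Arid2, Chd1, Chd2, Chd7, Chd3, Mbd2 and Mta3. At least 10 CpG dinucleotides were present in 52 of these windows (94.5%), beside 81.2% of windows of detected genes, 31.2% of those of genes that were not detected and 43.5% of all windows. The 3 undetected members all had such windows, with 23 for Actl6b, 29 for Smarca2 and 17 for Dpf3. The median over windows of detected members was 31, above each of these counts. Over windows of all detected genes it was 21, below the counts of Actl6b and Smarca2. The windows with fewest were 1 of the pair of Chd9 windows (1 CpG), that of Smarcd2 (4) and that of Smarca1 (9). This Chd9 window (90931999 to 90932298) and that of Smarcd2 (106267583 to 106267882) lie inside the gene spans, not at their upstream ends.

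The ATPase pair is shown as a further case of CpG-rich starts at unlike levels, again with CpG in capitals, on the plus strand of GRCm38.p6. Smarca4 lies at chr9:21615919-21616218 and Smarca2 at chr19:26604910-26605209.
Smarca4: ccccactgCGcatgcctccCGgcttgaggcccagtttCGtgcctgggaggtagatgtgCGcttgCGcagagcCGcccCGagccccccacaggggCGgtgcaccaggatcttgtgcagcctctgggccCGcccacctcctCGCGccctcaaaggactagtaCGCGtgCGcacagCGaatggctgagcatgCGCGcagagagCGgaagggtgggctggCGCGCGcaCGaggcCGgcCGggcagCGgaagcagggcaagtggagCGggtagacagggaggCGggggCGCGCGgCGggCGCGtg
Smarca2: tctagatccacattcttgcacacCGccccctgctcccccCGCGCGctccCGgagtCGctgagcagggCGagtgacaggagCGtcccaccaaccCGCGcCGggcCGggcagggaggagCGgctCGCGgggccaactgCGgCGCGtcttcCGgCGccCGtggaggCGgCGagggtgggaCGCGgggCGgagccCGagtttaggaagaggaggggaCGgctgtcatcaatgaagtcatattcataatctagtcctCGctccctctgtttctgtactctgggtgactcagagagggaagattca
The Smarca4 window held 33 CpG dinucleotides and the Smarca2 window 29. The letters GCATGCGC, the core of the NRF1 motif, had 2 matches over both strands for Smarca4 and none for Smarca2. The same letters were in the windows of Smarca5, Smarcb1 and Smarcc1, making 4 of 55 windows (7.27%), beside 2.71% of all windows and 5.79% of those of detected genes. A match is not evidence that a factor binds.

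The remaining motifs were counted in the same way. The ETS letters CCGGAAGT were in 5 windows (9.09%, beside 9.04% in detected genes and 3.89% of all), belonging to Daxx, Mta2 and Supt16. Windows and not genes were counted, so each of the overlapping Daxx windows is in this number. The YY1 letters AAGATGGCG were in those of Bptf and Smarcd1 (3.64%, beside 3.35% and 1.40%). The E2F letters GGCGGGAA were in those of Arid1a, Chaf1a and Gatad2a (5.45%, beside 4.15% and 2.19%), and TATAAA in those of Mbd3, Ruvbl1 and Smarcd2 (5.45%, beside 6.50% and 13.6%). CCAAT was in 21 windows (38.2%, beside 39.2% and 37.4%), among them those of Asf1a, Asf1b, Atrx, Ruvbl1 and Ruvbl2. All motifs were read on both strands, and none of the spelled motifs holds another.

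**Figure D5:**
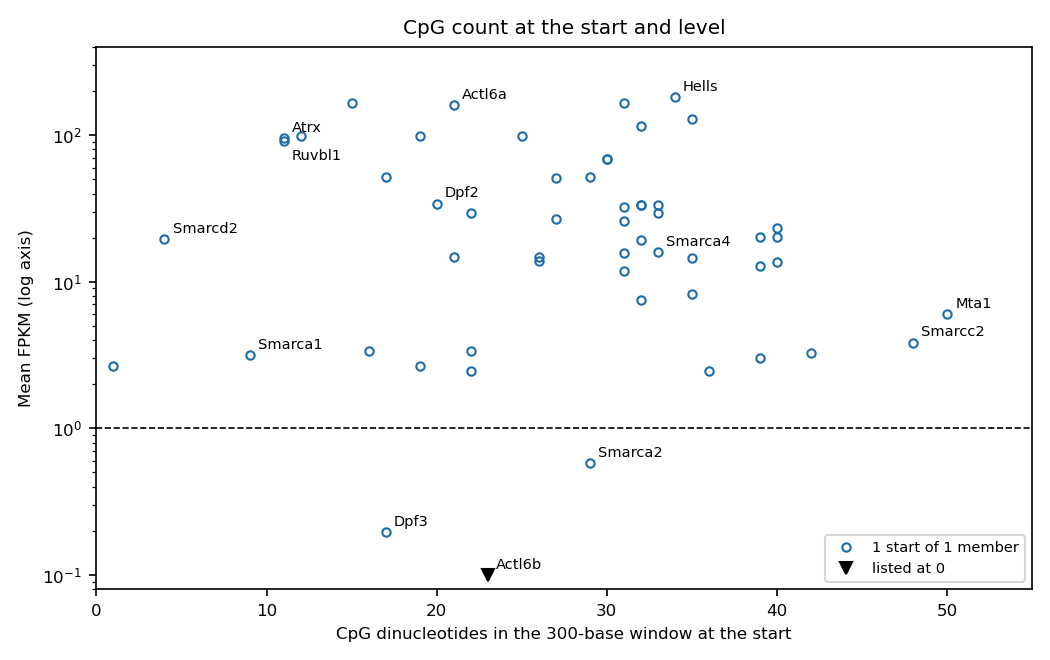
Mean FPKM (log axis) against the number of CpG dinucleotides in each 300-base start window of the 45 genes with a window; genes with several starts appear several times, Actl6b is marked as listed at 0, and the dashed line is the detection limit of 1. Actl6a and Actl6b lie at nearly the same CpG count, as do Smarca4 and Smarca2, at levels far apart.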

How the data were processed

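RNA was measured in 2 replicates of 1 group. Per the labels' protocols, total RNA was isolated with TRIzol, depleted of ribosomal RNA and made into stranded libraries. The authors deposited 1 table of FPKM per gene and replicate. CASAVA, TopHat2 and Cufflinks, with mm10 and GRCm38, are named per the submitters' processing notes. The sources used here give no versions, annotation, use of strand or scaling between libraries, and depth in reads is unknown. The labels do not say whether replicates were separate cultures, so their spread may be technical.

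Columns were matched to replicates by their description. Symbols were found for 28256 of 28592 genes by identifier without its version, and spans and start windows came from RefSeq (GRCm38.p6) by symbol. Ratios were taken per replicate without a pseudocount. The ratio and detection steps were tested on simulated data. The simulated pairs were set to differ by at least 2-fold, with a small and equal spread for all genes. Smaller differences and the wider spread at levels under 1 were not covered. Alternatives covered pseudocounts, detection limits, TPM and leaving out a replicate. Every member is named. Pathway genes are named as the 2 highest and the lowest of each list, with Ss18l1, and Bicra and Bcl11a outside that rule. Members, pairs and lists were chosen with earlier results of these data known, and motifs after levels were seen. Python 3.11.15, pandas 2.3.3, numpy 2.4.6, scipy 1.17.1 and matplotlib 3.10.9 were used.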

Additional observations from a re-analysis of the deposited data

How the results depend on the processing

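The number of detected members stayed between 42 and 53 over detection limits from 0.1 to 5, TPM and either replicate alone. The median level moved from 19.5 to 21.5 over detected members only and to 20.8 after rescaling to TPM, and lay between 19.3 and 20.4 with 1 replicate left out. The esBAF-type gene was higher in 6 of 9 comparisons with pseudocounts of 0.1 and 1, a 2-fold limit and either replicate alone. Because the ranges were apart in all 9, only the 2-fold limit among these settings could have changed the count. The number was 3 among pairs with both genes detected, since the pairs of Smarca2, Dpf3 and Actl6b then drop out. Members further apart between replicates than the limit numbered 5 rather than 2 at the lower limit tried. Of 26 log2 ratios, none changed sign where the ranges were apart. Neither a common pseudocount nor leaving out a replicate can change the sign there, so this is no check on the ratios. With a pseudocount of 1, 17 moved by more than the spread between replicates. No paired analysis was possible because there is a single group. Depth in reads is unknown, so no counting interval was computed, and levels under 1 are imprecise.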
